A study of Homo sapiens with 24 samples.

Results

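The chemoresistant line of the series was compared with its parental line, across all genes. The comparison used 12 of the 24 RNA sequencing libraries: 6 labelled chemoresistant and 6 labelled parental. Genes entered where the mean of either group reached 1 FPKM, the unit of the deposited table (sequenced fragments per kilobase of transcript, scaled to library size). That left 13225 of 61251 listed genes. Both lines are KYSE450, an established cell line of human oesophageal squamous cell carcinoma, with the genotype given as wild type. The chemoresistant libraries carry the title KYSE450DDP. All 12 cultures were grown in RPMI-1640 medium with 10% fetal bovine serum and are listed as untreated. The labels name neither the drug nor the dose that made the line resistant, do not explain the suffix, and do not say whether the resistant line is 1 clone or a pool. Separate cultures are not stated either: every p-value measures only the spread between these libraries, which may be technical. The remaining 12 libraries come from drug tolerant persister (DTP) cells of both lines and enter only a side-by-side reading.

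Oesophageal squamous carcinoma cells descend from a layered epithelium whose basal cells make the keratins KRT5 and KRT14 under the transcription factor TP63. Cells that leave the basal layer switch to S100 proteins, small proline-rich proteins and other components of the cornified envelope. Resistance to chemotherapy in such lines is usually studied through drug transport, detoxification under the transcription factor NRF2, protein quality control, DNA repair and cell death.

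Library totals were 20375167 to 26355466 reads in the chemoresistant group and 16670425 to 28841994 in the parental group, at which a count of 0 allows between 0.104 and 0.180 CPM, reads scaled to a common library size (counting error only). The 12 squamous markers that check the label were present: KRT5 ran at 2065 to 2423 FPKM (median 2111) in chemoresistant and 1528 to 1734 FPKM (median 1599) in parental libraries, and TP63 and SOX2 were also expressed in all 12. Transcripts of other cell types appeared at low levels and not evenly. The 10 fibroblast markers summed to 4.46 to 20.1 FPKM in chemoresistant and 3.27 to 7.98 FPKM in parental libraries. Among them COL1A1 stood at 8.79 to 12.2 FPKM in chemoresistant libraries 4 to 6, at 2.44 to 2.80 in libraries 1 to 3 and at 1.20 to 3.50 in the parental group. A list of 15 liver markers, added after their values were seen, summed to 15.5 to 24.9 FPKM in chemoresistant and 0.991 to 1.72 FPKM in parental libraries. ALB, serum albumin, was at 3.81 to 6.49 FPKM in chemoresistant libraries 1 to 3 and at 0.678 to 0.818 in libraries 4 to 6, while AFP, alpha-fetoprotein, had 0.888 to 1.38 and 4.79 to 7.59 FPKM there, and both were listed at 0 in all 6 parental libraries. Summed markers of leukocytes, endothelium, glandular epithelium and red cells stayed at or below 2.66 FPKM, with the leukocyte lysozyme gene LYZ at 0.597 to 1.91 FPKM in chemoresistant libraries 1 to 3. The source of these transcripts was not tested. The first principal component, with 88.8% of the variance, separated the lines. The second, with 5.0%, ran across both groups and went with the GC content of genes: deviations of single libraries from their group mean correlated with GC at Spearman rho from -0.65 to 0.67, whereas the difference between the lines did so at 0.09.

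More genes were detected in chemoresistant cells. Between 12534 and 12994 genes reached 1 FPKM in a chemoresistant library and 11206 to 11582 in a parental library. The filter was passed through the chemoresistant mean only by 1907 genes and through the parental mean only by 426. The direction of these genes came with the filter, also where they are counted in a list. Of the 13225 tested genes, 10688 (80.8%) differed by limma's moderated test with a Benjamini-Hochberg adjusted p under 0.05. Of these, 6608 (50.0%) were higher and 4080 (30.9%) lower in chemoresistant cells. A call alone was thus the common state, and list members were counted mainly at 2-fold: 1362 genes (10.3%) were called and at least 2-fold higher, and 468 (3.54%) called and at least 2-fold lower. All libraries of a group lay beyond all of the other for 8353 genes (63.2%). Over all tested genes the log2 fold change, on the scale log2(FPKM + 1), had a median of 0.15 with the deposited scaling, 0.00 after relative log expression scaling and -0.18 after upper-quartile scaling. With relative log expression factors 5358 genes (40.5%) were higher and 5278 (39.9%) lower, and 1030 (7.79%) and 713 (5.39%) at 2-fold. List medians are log2 fold changes to be read against 0.15, or against 0.00 where that scaling is named. Counts at 2-fold use log2(FPKM + 1) too, so genes of low level can fall short although their FPKM differ by more. Among protein coding genes 9.48% were at least 2-fold higher and 3.31% lower, among long noncoding RNAs 16.8% and 1.82%. Without chemoresistant libraries 4 to 6 there were 1334 genes at least 2-fold higher and 488 lower, and without libraries 1 to 3 the counts were 1406 and 473.

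**Figure D1:**
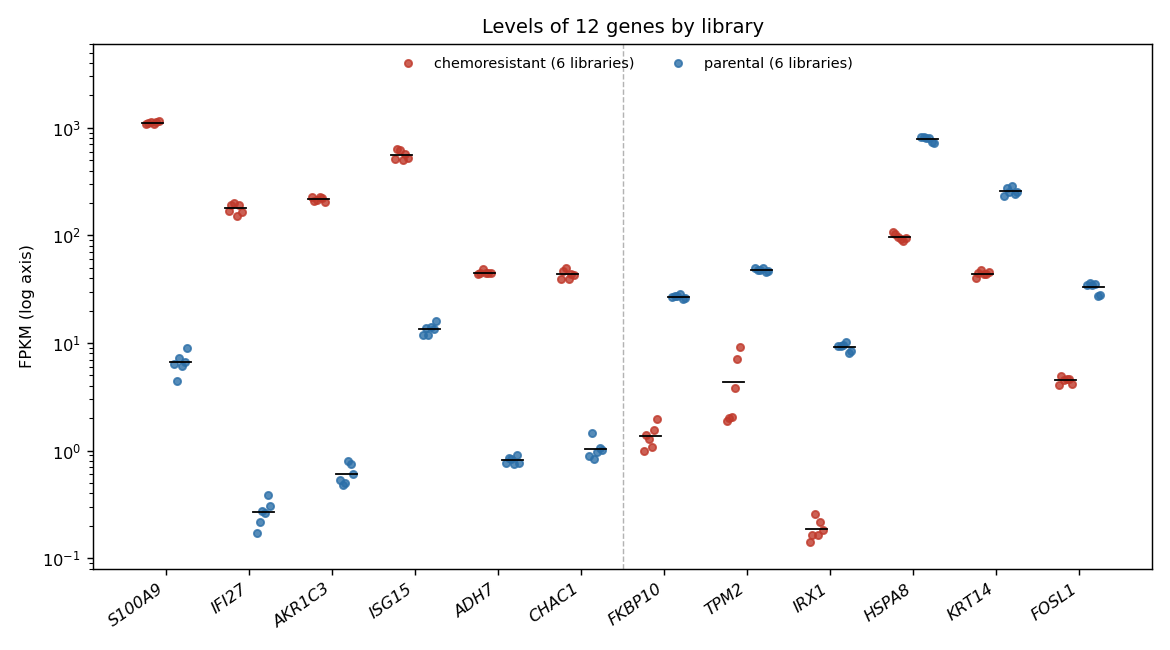
FPKM on a log axis of 12 genes in each of the 6 chemoresistant and 6 parental libraries (points) with the group mean (line). The 6 genes left of the dashed line were higher in every chemoresistant library and the 6 on the right lower, with TPM2 the most scattered of the 12 in chemoresistant libraries.

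A switch from under 0.1 FPKM in all 6 parental libraries to at least 1 FPKM in all 6 chemoresistant libraries was seen for 51 genes, 32 of them protein coding, and the reverse for 1 gene, CCDC8. CEACAM5 and CEACAM6, named here after their values were seen, are adhesion molecules of the carcinoembryonic antigen family. They averaged 9.85 and 10.7 FPKM in chemoresistant cells and 0.00703 and 0.0240 FPKM in parental cells. The 51 also held FGB, the fibrinogen beta chain and a liver transcript, at 1.62 against 0.00132 FPKM, and liver markers moved with the group as given above. CCDC8, a protein that works with CUL7 and OBSL1, had 0 to 0.0829 FPKM in chemoresistant and 6.01 to 7.22 FPKM in parental libraries.

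Interferon-stimulated genes were higher as a body in chemoresistant cells. Interferons bind surface receptors, and the kinases of the receptors activate factors such as STAT2 and IRF9, which bind the interferon-stimulated response element in promoters and switch on antiviral effectors. IFI27, a mitochondrial protein and a standard marker of type I interferon action, was at 153 to 201 FPKM (median 179) in chemoresistant and 0.172 to 0.385 FPKM (median 0.267) in parental libraries (log2 fold change 7.13, SE 0.07, adjusted p = 5.58e-17). BST2, tetherin, which holds budding viruses at the cell surface, was at 400 to 468 FPKM (median 427) against 1.38 to 2.68 FPKM (median 2.30) (log2 fold change 7.11). IFI6, another interferon-induced mitochondrial protein, had 242 to 276 FPKM (median 269) against 1.41 to 3.02 FPKM (median 2.28). No parental library came near any chemoresistant library for these genes. ISG15, a ubiquitin-like modifier, was at 504 to 631 FPKM (median 544) in chemoresistant and 11.8 to 16.03 FPKM (median 13.5) in parental cells, and UBE2L6, the enzyme that conjugates it, at 166 to 198 FPKM (median 179) against 2.18 to 3.14 FPKM (median 2.69). IFITM1, which blocks viral entry, was at 748 to 915 FPKM (median 776) against 11.7 to 15.8 FPKM (median 12.5). OAS2, which makes the activator of RNase L, had 30.3 to 39.9 FPKM (median 35.4) against 0.187 to 0.368 FPKM (median 0.257), and OAS1 and IFIT1, an RNA cap sensor, had log2 fold changes of 3.89 and 4.21. TYMP, thymidine phosphorylase, was also among the 15 largest rises (4.96). Of the 47 effectors listed, 45 passed the filter. All 45 were called and at least 2-fold higher (43 after relative log expression scaling), where 10.3% of all genes were, and their median was 3.09. Some, such as IFI27, OAS1 and OAS2 (parental means of 0.269, 0.206 and 0.268 FPKM), passed only through the chemoresistant group. The direction of such members came with the filter. MX1, below the filter, averaged 0.702 FPKM in chemoresistant and 0.0907 FPKM in parental cells.

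The interferon-stimulated response element, searched as GAAA, any 2 bases and GAAA on either strand with overlaps allowed, stood in 28 of the 38 effector promoters found in the RefSeq table (250 bases before to 50 after the start, GRCh38.p14), that is 73.7%. It stood in 4.38% of all 27195 promoters, in 9.26% of those of genes at least 2-fold higher and in 3.32% of those at least 2-fold lower. The stretches below show the match in capitals, in the direction of transcription, for 4 of the effectors described above: ISG15 at chr1:1013334-1013443 on the plus strand, IFI6 at chr1:27672289-27672398 on the minus strand, IFIT1 at chr10:89392457-89392566 and IFI27 at chr14:94110578-94110687 on the plus strand.
ISG15: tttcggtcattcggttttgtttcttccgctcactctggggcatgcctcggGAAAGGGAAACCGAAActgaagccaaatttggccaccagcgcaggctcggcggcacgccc
IFI6: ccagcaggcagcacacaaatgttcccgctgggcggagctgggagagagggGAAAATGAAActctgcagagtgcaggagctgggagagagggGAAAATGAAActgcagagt
IFIT1: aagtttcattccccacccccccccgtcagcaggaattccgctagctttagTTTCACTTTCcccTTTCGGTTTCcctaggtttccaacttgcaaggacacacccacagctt
IFI27: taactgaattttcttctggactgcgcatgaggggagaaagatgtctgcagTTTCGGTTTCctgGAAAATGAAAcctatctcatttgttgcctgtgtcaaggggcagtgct
In IFIT1 both matches read on the opposite strand, in IFI27 a match of each strand lies side by side, and in ISG15 a pair of matches overlap. A match is a description of the letters and not a measured site.

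Upstream of the effectors, 24 of 27 tested sensing and signalling genes were higher, 2 lower, and 13 at least 2-fold higher (median 1.00). STAT2 was at 26.9 to 31.4 FPKM (median 28.6) in chemoresistant and 3.47 to 4.87 FPKM (median 4.08) in parental libraries, and IRF9 at 1.89 to 2.42 FPKM (median 2.08) against 0.478 to 0.689 FPKM (median 0.571). IRF7, the factor that amplifies interferon production, was at 22.8 to 28.7 FPKM (median 24.3) against 0.946 to 1.56 FPKM (median 1.25). Sensors of viral RNA followed, with DHX58 (LGP2) higher by 3.65 and IFIH1 (MDA5) by 2.85. USP18, which removes ISG15 and damps the receptor, was higher by 2.78. The receptor chain IFNAR1 differed less (0.50). Ligands were scarce: IFNL1, a type III interferon, was at 0.711 to 1.76 FPKM (median 1.13) in chemoresistant cells and 0 to 0.0540 FPKM (median 0) in parental cells, and IFNB1, below the filter, had 39 reads over the 6 chemoresistant libraries and 0 over the 6 parental ones.

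Antigen presentation by MHC class I, which shows peptides cut by the proteasome to T cells, was mostly higher. Of 20 tested genes 16 were higher, 14 of them at least 2-fold, and 4 lower (median 1.18), the lower ones, named after their values were seen, being the transporter subunit TAP2 (-0.15, adjusted p = 0.0276) and the chaperones CALR, CANX and PDIA3 (-0.76, -0.58 and -0.50). TAP2 missed the threshold with all 24 libraries in the fit (adjusted p = 0.0643), with chemoresistant libraries 1 to 3 or 4 to 6 only and with chemoresistant library 2 or 3 or parental library 1 or 6 left out (adjusted p from 0.0528 to 0.0818 over the last 6). HLA-B was at 80.9 to 96.7 FPKM (median 85.99) in chemoresistant and 6.20 to 8.15 FPKM (median 6.35) in parental libraries, HLA-C at 159 to 198 FPKM (median 170) against 24.4 to 28.6 FPKM (median 25.6) and B2M, their shared light chain, at 192 to 223 FPKM (median 210) against 45.1 to 51.8 FPKM (median 48.4). HLA genes are near-identical in part, so reads may be split between them. The peptide transporter TAP1 was higher by 2.29 and the immunoproteasome subunit PSMB9 by 3.16. Of MHC class II genes, 6 of 9 were higher and 1 lower, with 0 at 2-fold, and the class II transactivator CIITA differed by 0.41. Among checkpoint and natural killer ligands 5 of 15 were at least 2-fold higher and 0 lower. ULBP1, a ligand of the activating receptor NKG2D, was at 6.54 to 9.03 FPKM (median 7.74) against 0.0782 to 0.292 FPKM (median 0.163), and galectin-9, LGALS9, at 5.79 to 7.39 FPKM (median 6.14) against 0.218 to 0.346 FPKM (median 0.279).

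Chemokines and NF-kB genes were higher as well. Of 11 tested chemokines 9 were higher, all 9 of them at least 2-fold, and 1 lower (median 1.54). CCL5, which draws T cells, was at 39.8 to 50.9 FPKM (median 44.3) in chemoresistant and 2.02 to 2.80 FPKM (median 2.30) in parental libraries. CXCL10, a chemokine induced by interferon, had 8.86 to 11.3 FPKM (median 10.8) against 0.0712 to 0.384 FPKM (median 0.229), and CXCL8, interleukin-8, 17.4 to 24.8 FPKM (median 23.6) against 3.67 to 6.29 FPKM (median 4.22). Of 25 interleukin and NF-kB feedback genes 12 were at least 2-fold higher and 0 lower. IL20RB, a receptor chain for interleukins 20 and 24, was at 32.3 to 36.1 FPKM (median 34.2) against 0.540 to 1.14 FPKM (median 0.890), and IL1A, an alarm signal of keratinocytes, at 3.21 to 5.13 FPKM (median 4.51) against 0 to 0.0442 FPKM (median 0.0196). The NF-kB target TNFAIP2 was higher by 3.52 and PTGS2, the inducible cyclooxygenase, by 1.91.

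S100A9, of the S100 family, had the largest log2 fold change of the protein coding genes on the log2(FPKM + 1) scale. Genes near 0 in 1 line, such as IFI27, rank lower on that scale than by a ratio of FPKM. These small calcium-binding proteins lie mostly in the epidermal differentiation complex of chromosome 1 and are abundant in inflamed or differentiating squamous epithelium. S100A9 was at 1080 to 1159 FPKM (median 1110) in chemoresistant and 4.40 to 8.91 FPKM (median 6.52) in parental libraries (log2 fold change 7.21, SE 0.11, adjusted p = 1.61e-15). S100A8, its partner in calprotectin, was at 70.4 to 80.1 FPKM (median 74.98) against 0.282 to 0.778 FPKM (median 0.504) and S100A7, psoriasin, at 31.1 to 44.2 FPKM (median 40.2) against 0.0861 to 0.344 FPKM (median 0.245). All 3 were nearly silent or low in every parental library. S100P, encoded on chromosome 4, was at 24.8 to 37.4 FPKM (median 30.04) against 0.395 to 1.33 FPKM (median 0.824). Of 14 tested members 12 were higher, 9 at least 2-fold, and 2 lower. S100A2, a p63 target of basal cells, was an exception at 268 to 363 FPKM (median 305) against 315 to 433 FPKM (median 383) with overlapping groups (log2 fold change -0.28, adjusted p = 0.0142, adjusted p = 0.147 without chemoresistant libraries 4 to 6).

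Cornified envelope genes were higher in 11 of 12 tested, 8 at least 2-fold, with 0 lower (median 1.54). SPRR1A, a cross-linked envelope protein, was at 97.1 to 109 FPKM (median 103) in chemoresistant and 12.2 to 17.4 FPKM (median 13.9) in parental libraries, and SPRR2D, of a family with near-identical copies, at 24.7 to 32.1 FPKM (median 26.96) against 2.11 to 3.46 FPKM (median 2.98). CSTA, cystatin A, was at 104 to 164 FPKM (median 145) against 32.00 to 39.6 FPKM (median 35.1). The cross-linking enzyme TGM1 stayed low at 0.987 to 1.24 FPKM (median 1.04) against 0.177 to 0.291 FPKM (median 0.225), and IVL, involucrin, had 6 reads over the 6 chemoresistant and 3 over the 6 parental libraries. Protease inhibitors of squamous surfaces were higher too: PI3, elafin, was at 40.1 to 44.3 FPKM (median 42.8) against 0.404 to 1.20 FPKM (median 1.10) and SLPI at 79.2 to 81.9 FPKM (median 81.01) against 5.98 to 10.4 FPKM (median 9.19). Of 15 kallikreins, a family with proteases that shed cornified cells, 3 passed the filter. These 3 were all at least 2-fold higher, KLK10 most (log2 fold change 3.52). KLK8 passed only through the chemoresistant group (means of 2.29 and 0.00684 FPKM), so its direction came with the filter. The same holds for KLK11, also tested. All 15 kallikreins summed to at most 1.70 FPKM in a parental library, and KLK10 alone averaged 1.13 FPKM there. Below the filter, KLK5, KLK6 and KLK7 had 1, 175 and 37 reads over the 6 chemoresistant and 0, 2 and 2 over the 6 parental libraries.

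Keratins did not move one way. Of 16 tested, 9 were higher and 6 lower, 4 and 2 at 2-fold. KRT14, the basal partner of KRT5, was at 39.8 to 47.2 FPKM (median 44.2) in chemoresistant and 234 to 288 FPKM (median 254) in parental libraries (log2 fold change -2.52, SE 0.05, adjusted p = 6.74e-14). KRT13, of non-cornified upper layers, was at 279 to 320 FPKM (median 297) against 675 to 802 FPKM (median 752). KRT5 itself was higher by 0.43, or by 0.02 with adjusted p = 0.791 after upper-quartile scaling. KRT16, of activated epithelium, was at 16.4 to 21.5 FPKM (median 17.9) against 2.50 to 3.51 FPKM (median 3.13), KRT4 at 26.4 to 30.5 FPKM (median 27.99) against 7.32 to 8.09 FPKM (median 7.56) and KRT15, of basal cells, at 274 to 299 FPKM (median 277) against 83.9 to 105 FPKM (median 95.2). KRT19, a keratin of simple epithelium, stood at 3.45 and 3.82 FPKM in chemoresistant libraries 1 and 2 and at 0.526 to 0.555 FPKM in the other 4, against at most 0.154 FPKM in parental libraries. Factors of the squamous lineage were higher in 20 of 22, 9 at least 2-fold, and lower in 1 (median 0.82). EHF, an ETS factor of differentiating epithelium, was at 17.9 to 22.7 FPKM (median 21.6) against 1.56 to 2.24 FPKM (median 1.80), FOXE1 at 37.8 to 41.5 FPKM (median 38.7) against 5.24 to 6.60 FPKM (median 5.64) and NOTCH3 at 8.35 to 10.3 FPKM (median 8.72) against 0.829 to 0.977 FPKM (median 0.876). TP63 and SOX2, the lineage factors, were higher by 0.55 and 0.77, against -0.72 and -0.78 between the persister states.

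Genes of cell contacts and shape moved both ways. Among 22 junction genes 6 were at least 2-fold higher and 0 lower, led by the tight junction claudins CLDN7 and CLDN4 and by desmoglein 3, DSG3 (log2 fold changes 2.94, 2.37 and 1.74). CLDN7 was at 49.3 to 51.9 FPKM (median 50.8) in chemoresistant and 5.49 to 6.03 FPKM (median 5.72) in parental libraries. E-cadherin, CDH1, was lower at 29.3 to 32.9 FPKM (median 30.8) in chemoresistant and 52.2 to 58.2 FPKM (median 56.5) in parental libraries. Of 21 mesenchymal genes 6 were at least 2-fold higher and 1 lower on the log2(FPKM + 1) scale, on which the low CDH2 (below) fell short of 2-fold. Vimentin, VIM, was at 4.75 to 7.89 FPKM (median 5.68) against 0.485 to 1.01 FPKM (median 0.746), N-cadherin, CDH2, at 0.297 to 0.486 FPKM (median 0.384) against 1.18 to 1.36 FPKM (median 1.24), and the receptor kinase AXL at 0.483 to 0.793 FPKM (median 0.605) against 5.49 to 7.16 FPKM (median 6.99). Libraries 4 to 6, which held more COL1A1, had the higher VIM values of the chemoresistant group (6.36 to 7.89 FPKM, and 4.75 to 5.00 FPKM in libraries 1 to 3), and both sets lay above every parental library. FN1, fibronectin, was at 1.05 to 7.09 FPKM (median 3.02) against 0.800 to 8.57 FPKM (median 3.44), with overlapping groups and the COL1A1-rich libraries highest among the chemoresistant 6.

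Genes near 0 in chemoresistant cells, such as CCDC8 and IRX1, fell further by a ratio of FPKM. On the log2(FPKM + 1) scale, FKBP10 had the deepest fall among protein coding genes. This prolyl isomerase of the endoplasmic reticulum folds collagen, and it was at 0.987 to 1.96 FPKM (median 1.34) in chemoresistant and 25.8 to 28.3 FPKM (median 26.98) in parental libraries (log2 fold change -3.57, SE 0.08, adjusted p = 8.95e-14). SERPINH1, the collagen chaperone HSP47, was at 46.6 to 58.3 FPKM (median 50.9) against 116 to 150 FPKM (median 137). The other 17 tested collagen-folding genes held 1 gene at least 2-fold higher, COLGALT2, and 0 lower. TPM2, the beta tropomyosin that winds along actin, was at 1.90 to 2.05 FPKM in chemoresistant libraries 1 to 3, at 3.80 to 9.12 FPKM in libraries 4 to 6 and at 46.1 to 50.2 FPKM (median 47.3) in parental libraries. Its log2 fold change of -3.38 had an SE of 0.28, and was -4.03 without libraries 4 to 6 and -2.74 without libraries 1 to 3. Of 27 actin, tropomyosin and serum response factor targets 16 were lower and 5 higher. At 2-fold 3 (11.1%) were lower and 2 (7.41%) higher, against 3.54% and 10.3% of all tested genes. ACTB, cytoplasmic actin, was at 569 to 780 FPKM (median 641) against 1215 to 1719 FPKM (median 1659).

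Metalloproteinase and plasminogen system genes moved both ways. Of 15 tested, 10 were higher and 3 lower, 4 (26.7%) and 2 (13.3%) at 2-fold, against 10.3% and 3.54% of all tested genes. Among those higher, PLAT, tissue plasminogen activator, was at 23.5 to 26.6 FPKM (median 25.3) in chemoresistant and 0.545 to 0.733 FPKM (median 0.662) in parental libraries, and PLAU, urokinase, at 13.4 to 15.7 FPKM (median 14.7) against 2.39 to 3.09 FPKM (median 2.67). Growth factor genes moved both ways: of 32 receptor kinase and growth factor binding genes 5 were at least 2-fold higher and 7 lower. TNFRSF8 (CD30), a receptor of the tumour necrosis factor family, was at 0.786 to 1.22 FPKM (median 1.03) against 13.8 to 17.5 FPKM (median 16.03), and IGFBP3, which binds insulin-like growth factors, at 24.2 to 27.7 FPKM (median 26.04) against 1.99 to 3.35 FPKM (median 2.51). VEGFA, the main inducer of blood vessels, was higher by 2.43. In the EGFR family list 5 of 21 were at least 2-fold higher and 2 lower. EGFR was at 88.1 to 101 FPKM (median 93.1) against 102 to 130 FPKM (median 125), the ligand EREG at 1.91 to 2.66 FPKM (median 2.33) against 8.49 to 10.2 FPKM (median 9.14) and the ligand HBEGF at 8.47 to 10.1 FPKM (median 9.63) against 0.702 to 1.06 FPKM (median 0.987). FOSL1, an AP-1 factor downstream of ERK, was at 4.09 to 4.94 FPKM (median 4.58) against 27.6 to 36.1 FPKM (median 34.9), with a log2 fold change of -2.62 here and -0.23 between the persister states. PTHLH, the parathyroid hormone-related protein of squamous tumours, was at 5.09 to 6.48 FPKM (median 6.02) in chemoresistant and 50.9 to 55.2 FPKM (median 52.2) in parental libraries. The RNA-binding protein IGF2BP1 was at 1.17 to 1.34 FPKM (median 1.25) against 14.1 to 16.3 FPKM (median 15.9), and the developmental factor IRX1 at 0.141 to 0.259 FPKM (median 0.174) against 8.13 to 10.1 FPKM (median 9.43). The other falls among the 15 deepest were the small GTPase RAC3, the phospholipid transfer protein PLTP, neuropeptide W (NPW), the tubulin TUBA4A and the developmental factor TBX1 (log2 fold changes -2.96, -2.91, -2.98, -2.80 and -2.62).

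Detoxification enzymes were higher in chemoresistant cells. NRF2 is a transcription factor that KEAP1 holds for degradation until oxidants or electrophiles modify KEAP1, and its targets make glutathione, reduce carbonyls and export conjugates. Among the 15 largest rises were 4 aldo-keto reductases, which reduce aldehydes, ketones and steroids. AKR1C3 was at 206 to 228 FPKM (median 216) in chemoresistant and 0.475 to 0.802 FPKM (median 0.568) in parental libraries (log2 fold change 7.09, SE 0.05, adjusted p = 3.58e-18). AKR1B10 was at 58.8 to 62.8 FPKM (median 59.3) against 0.0236 to 0.176 FPKM (median 0.119), AKR1C2 at 202 to 245 FPKM (median 228) against 4.25 to 6.18 FPKM (median 4.79) and AKR1C1 at 75.6 to 88.4 FPKM (median 77.7) against 1.06 to 1.51 FPKM (median 1.31). AKR1C1, AKR1C2 and AKR1C3 share near-identical stretches, so the split of reads between them is uncertain. All 7 tested members were higher, 5 at least 2-fold, with AKR1B1 at a log2 fold change of 0.54 (0.15, adjusted p = 0.131, after upper-quartile scaling). The retinol dehydrogenase ADH7 followed at 43.98 to 48.3 FPKM (median 44.5) against 0.755 to 0.903 FPKM (median 0.808). Of 17 aldehyde and alcohol dehydrogenases 4 were at least 2-fold higher and 1 lower: ALDH1A1 was at 11.2 to 14.5 FPKM (median 13.3) against 0.796 to 1.09 FPKM (median 0.889), and ALDH1A3, which also makes retinoic acid, at 12.2 to 14.1 FPKM (median 12.7) against 34.6 to 39.8 FPKM (median 36.5).

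Of 34 tested NRF2 targets 32 were higher and 1 lower, 17 and 0 at 2-fold (median 0.98, or 0.88 after relative log expression scaling). CYP4F11, a fatty acid hydroxylase, was at 45.98 to 49.6 FPKM (median 47.3) in chemoresistant and 2.12 to 2.74 FPKM (median 2.38) in parental libraries. GCLC, the catalytic subunit that limits glutathione synthesis, was at 36.8 to 45.4 FPKM (median 41.5) against 5.70 to 6.54 FPKM (median 5.99), whereas its modifier subunit GCLM overlapped between the lines at 8.25 to 12.6 FPKM (median 10.3) against 7.84 to 11.1 FPKM (median 8.32) (log2 fold change 0.18, adjusted p = 0.127, and -0.19 after upper-quartile scaling). SLC7A11, the cystine importer, was at 11.9 to 17.7 FPKM (median 15.9) against 0.998 to 1.53 FPKM (median 1.43) and NQO1, a quinone reductase, at 118 to 127 FPKM (median 122) against 46.8 to 53.4 FPKM (median 52.3). TXNRD1, thioredoxin reductase, was higher by 0.76 and haem oxygenase HMOX1 by 0.71. NFE2L2, which encodes NRF2, was at 31.1 to 42.2 FPKM (median 38.1) against 13.8 to 18.03 FPKM (median 15.1), and KEAP1 at 46.9 to 63.5 FPKM (median 51.8) against 34.2 to 44.97 FPKM (median 41.7) (adjusted p = 0.0651 after relative log expression scaling). SQSTM1, the autophagy receptor that sequesters KEAP1, was at 69.9 to 79.9 FPKM (median 74.4) against 25.4 to 29.4 FPKM (median 27.1). The antioxidant response element letters TGACNNNGC, searched on both strands, stood in 10 of 26 NRF2 target promoters (38.5%), in 16.1% of all promoters, in 19.4% of those of all tested genes, in 17.4% of those of genes at least 2-fold higher and in 20.7% of those at least 2-fold lower. In the list of glutathione transferases and peroxidases 20 of 23 were higher (7 at least 2-fold) and 3 lower (1 at 2-fold). The 7 include CHAC1, which degrades glutathione and is counted again in the stress response list below. GPX2, an epithelial glutathione peroxidase, was at 266 to 313 FPKM (median 278) against 37.7 to 43.3 FPKM (median 39.1). GSTP1, a transferase of many tumours, overlapped at 627 to 751 FPKM (median 678) against 543 to 668 FPKM (median 600). Its log2 fold change was 0.19, and -0.22 after upper-quartile scaling.

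The list of drug efflux and platinum uptake genes had 6 of 14 at least 2-fold higher, with 0 lower at 2-fold, or 6 and 2 after relative log expression scaling. The first 6 include the peptide transporter TAP1, counted above with MHC class I, and ABCC2, counted above as an NRF2 target. ABCC2 (MRP2), which exports glutathione conjugates, was at 7.65 to 9.09 FPKM (median 8.37) in chemoresistant and 0.123 to 0.221 FPKM (median 0.191) in parental libraries. The major vault protein, MVP, was at 22.1 to 26.5 FPKM (median 23.8) against 2.06 to 2.72 FPKM (median 2.19) and SLC47A2, a cation exporter, at 9.17 to 9.78 FPKM (median 9.47) against 0.692 to 1.03 FPKM (median 0.946). ABCC1 (MRP1) was higher by 0.96. ABCB1 (P-glycoprotein) and ABCG2 lay below the filter at means of 0.255 and 0.298 FPKM in chemoresistant and 0.0164 and 0.451 FPKM in parental cells. SLC31A1, the copper importer that also carries cisplatin, was at 16.6 to 19.2 FPKM (median 17.99) against 11.2 to 12.7 FPKM (median 11.7), and the copper exporter ATP7B at 1.25 to 1.37 FPKM (median 1.32) against 0.524 to 0.612 FPKM (median 0.558). Copper transport and cuproptosis genes as a list stayed near the median of all genes (0.23, 0.07 after relative log expression scaling and -0.14 after upper-quartile scaling). On the log2(FPKM + 1) scale 1 of 20 was at least 2-fold higher, SCO2. ATP7B, at low level, fell short of 2-fold on that scale although its FPKM differed by more. FDX1, the ferredoxin of protein lipoylation, was at 4.20 to 5.21 FPKM (median 4.60) against 2.49 to 3.22 FPKM (median 2.82). Of 12 iron genes 5 were higher and 5 lower, with the ferritin chain FTH1 higher by 1.15 and the transferrin receptor TFRC lower (log2 fold change -1.03).

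Genes of the integrated stress response, in which the factor ATF4 raises amino acid supply and stress signals when translation is braked, were higher in 31 of 34 and lower in 1. At 2-fold 24 were higher and 0 lower (median 1.53, or 1.38 after relative log expression scaling). CHAC1, which degrades glutathione, was at 39.1 to 49.3 FPKM (median 43.4) in chemoresistant and 0.837 to 1.46 FPKM (median 0.998) in parental libraries (log2 fold change 4.45, SE 0.07, adjusted p = 5.79e-15). The stress hormone GDF15 was at 21.7 to 26.8 FPKM (median 24.9) against 0.431 to 0.742 FPKM (median 0.610) and the peptide hormone ADM2 at 14.2 to 16.9 FPKM (median 15.1) against 0.312 to 0.469 FPKM (median 0.348). CTH, which makes cysteine, was at 22.02 to 27.9 FPKM (median 24.4) against 1.58 to 2.39 FPKM (median 1.81), and DDIT3 (CHOP), a death-promoting factor, at 24.1 to 29.5 FPKM (median 27.5) against 2.95 to 4.56 FPKM (median 3.92). ATF4 itself differed less, at 212 to 228 FPKM (median 223) against 117 to 135 FPKM (median 127). TRIB3, which feeds back on ATF4, was higher by 2.25 here, against -0.80 between the persister states. Aminoacyl-tRNA synthetases were at least 2-fold higher in 7 of 20 and lower in 1, with WARS1, CARS1, MARS1 and AARS1 higher by 1.49, 1.48, 1.41 and 1.39. The letters TGATGCAA of the CEBP-ATF response element stood, on either strand, in 6 of 29 stress response promoters and 6 of 16 synthetase promoters, in 1.08% of all promoters, in 2.84% of those of genes at least 2-fold higher and in 0 of 271 of those at least 2-fold lower. The CHAC1 promoter, shown for the largest fold change of the list, carries them in reverse, in capitals, at chr15:40953221-40953330 on the plus strand.
CHAC1: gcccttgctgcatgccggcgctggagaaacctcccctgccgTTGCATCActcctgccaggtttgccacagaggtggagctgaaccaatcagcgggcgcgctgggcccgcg

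Chaperones of the endoplasmic reticulum were divided: 9 of 22 were higher and 12 lower (median -0.33). At 2-fold 3 (13.6%) were higher and 1 (4.55%) lower, near the 10.3% and 3.54% over all tested genes. HERPUD1, of the degradation machinery, was at 17.3 to 19.2 FPKM (median 18.3) in chemoresistant and 2.55 to 3.12 FPKM (median 3.00) in parental libraries, and the response factor XBP1 at 43.1 to 51.7 FPKM (median 50.4) against 14.6 to 18.1 FPKM (median 16.1). HSPA5 (BiP), the main chaperone of the compartment, was at 110 to 117 FPKM (median 116) against 73.00 to 81.4 FPKM (median 76.1). HYOU1, its nucleotide exchange partner, was the 1 gene at least 2-fold lower, at 17.03 to 18.5 FPKM (median 17.7) against 78.1 to 81.3 FPKM (median 79.3).

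Most cytosolic heat shock chaperones were lower in chemoresistant cells. HSP70 proteins with their HSP40 partners bind unfolded chains, HSP90 with its co-chaperones finishes folding of kinases and receptors, and the heat shock factor HSF1 drives many of their genes through the heat shock element. Over all its members, the HSP70 and HSP40 list summed to 1337 to 1575 FPKM in chemoresistant and 2444 to 2708 FPKM in parental libraries. That list also holds BAG3 and the small heat shock protein HSPB1. HSPB1 alone made up 761 to 963 FPKM in chemoresistant and 679 to 803 FPKM in parental libraries. The list of HSP90, its co-chaperones, HSF1 and the mitochondrial chaperonins summed to 1005 to 1112 against 2557 to 2972 FPKM. HSPA8, the constitutive HSP70, was at 89.05 to 107 FPKM (median 95.4) against 727 to 814 FPKM (median 799) (log2 fold change -3.00, SE 0.05, adjusted p = 5.55e-15). HSPA1A, the inducible HSP70 and a near-identical copy of HSPA1B, was at 52.2 to 72.3 FPKM (median 58.1) against 301 to 419 FPKM (median 382). HSP90AA1, inducible HSP90, was at 93.98 to 129 FPKM (median 108) against 579 to 761 FPKM (median 623) and HSP90AB1, the constitutive form, at 390 to 447 FPKM (median 426) against 971 to 1157 FPKM (median 1019). All 4 were lower in every chemoresistant library. DNAJA1, an HSP40 partner, was at 37.7 to 49.1 FPKM (median 40.2) against 173 to 198 FPKM (median 178), the HSP90 co-chaperone CHORDC1 at 2.23 to 3.13 FPKM (median 2.58) against 23.4 to 26.4 FPKM (median 24.5) and STIP1, which joins HSP70 to HSP90, at 53.5 to 60.03 FPKM (median 55.7) against 204 to 225 FPKM (median 211). DNAJB1 and BAG3 had log2 fold changes of -0.41 and -0.27. HSPB1, the small heat shock protein, was at 761 to 963 FPKM (median 787) against 679 to 803 FPKM (median 691), with a log2 fold change of 0.23 and of -0.18 after upper-quartile scaling. HSF1 had 0.17, and -0.22 after upper-quartile scaling.

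Of 26 genes in the HSP70 and HSP40 list, HSPB1 and BAG3 among them, 17 were lower and 4 higher (5 and 0 at 2-fold). Of 16 genes of HSP90, its co-chaperones, HSF1 and the mitochondrial chaperonins, 14 were lower and 2 higher. At 2-fold the latter counts were 5 and 0, or 10 and 0 after relative log expression scaling. The cytosolic chaperonin, which folds actin and tubulin, had 9 of 13 lower and 2 higher, with CCT6A and CCT5 lower at log2 fold changes of -1.42 and -1.24. Background shares at 2-fold were 10.3% higher and 3.54% lower. The heat shock element, searched as GAA, any 2 bases, TTC, any 2 bases and GAA on either strand with overlaps allowed, stood in 4 of 26 promoters of the first list and 4 of 14 of the second, against 0.607% of all promoters. It stood in 8 of 271 promoters of genes at least 2-fold lower and in 0 of 810 of genes at least 2-fold higher. For 3 genes described above the match is shown in capitals: HSPA8 at chr11:123062277-123062386, HSP90AA1 at chr14:102087072-102087181 and CHORDC1 at chr11:90223049-90223158, all on the minus strand of GRCh38.p14 and written in the direction of transcription.
HSPA8: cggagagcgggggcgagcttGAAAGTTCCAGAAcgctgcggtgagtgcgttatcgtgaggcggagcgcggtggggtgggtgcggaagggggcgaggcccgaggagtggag
HSP90AA1: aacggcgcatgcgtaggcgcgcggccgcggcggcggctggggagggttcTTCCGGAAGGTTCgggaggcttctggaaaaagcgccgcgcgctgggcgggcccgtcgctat
CHORDC1: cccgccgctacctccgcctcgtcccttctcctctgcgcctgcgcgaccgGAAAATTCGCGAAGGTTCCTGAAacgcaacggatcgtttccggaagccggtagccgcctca
In HSP90AA1 the match reads in reverse. The CHORDC1 stretch holds 3 overlapping matches, and the HSPA8 promoter a second match beyond the stretch shown.

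**Figure D2:**
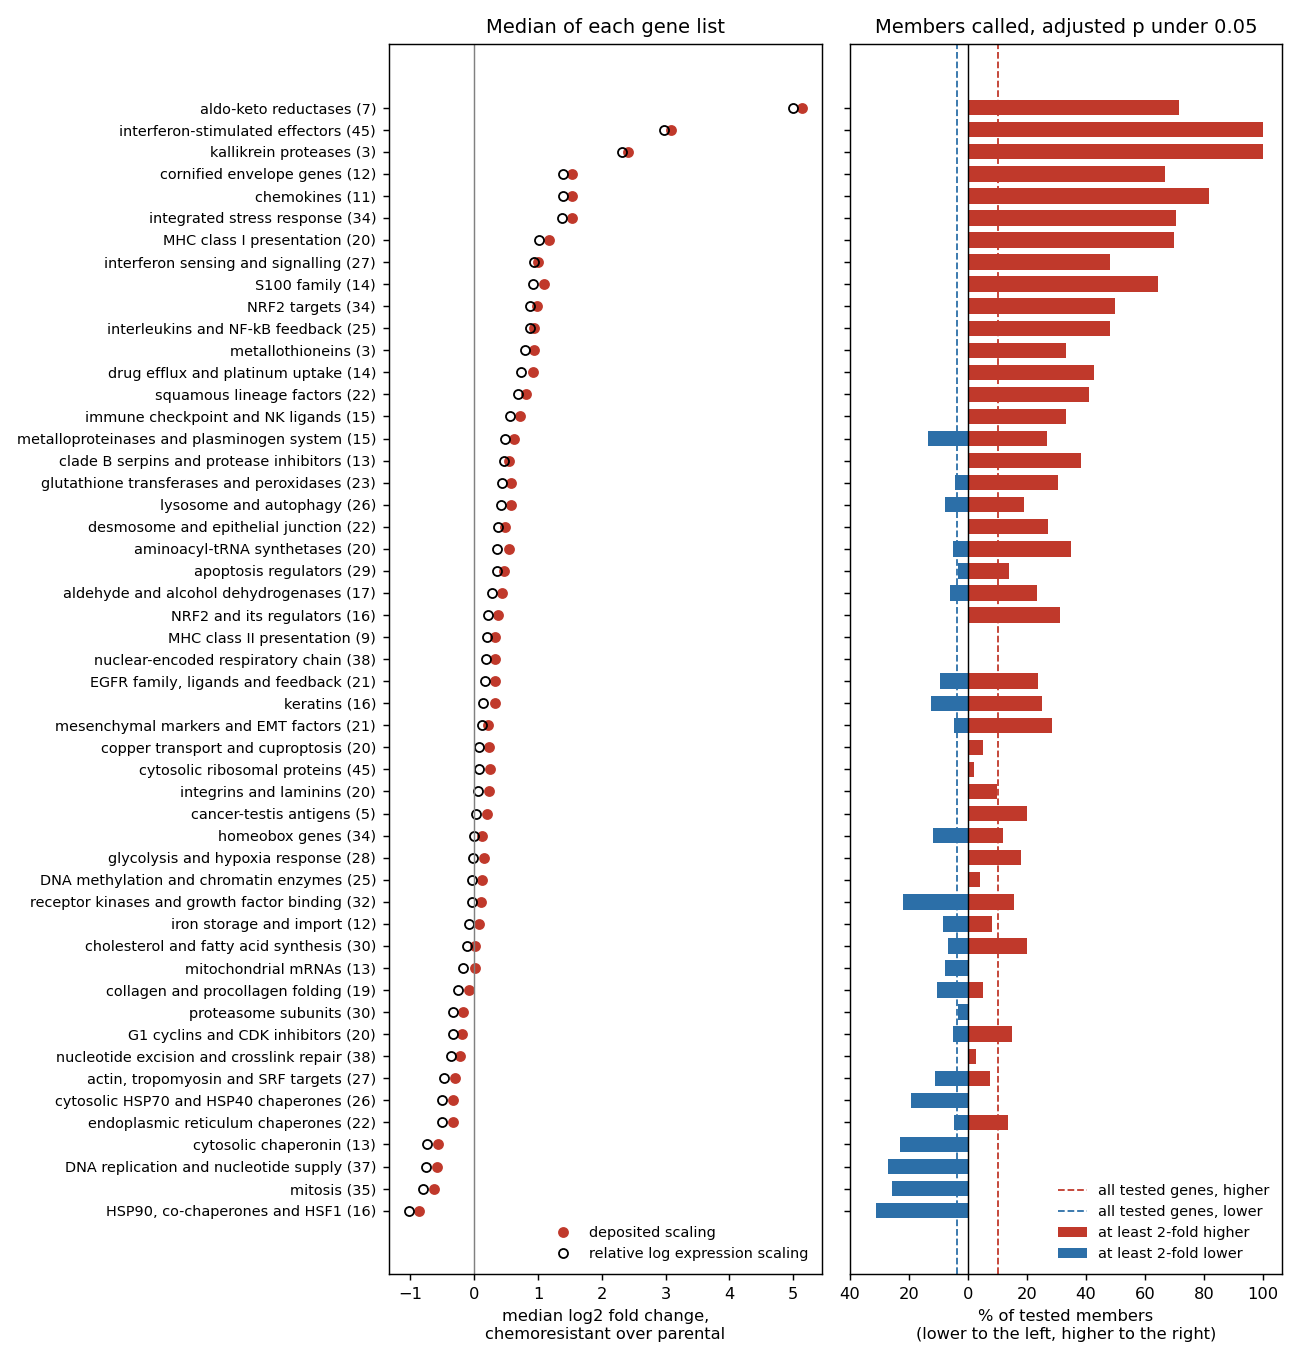
Median log2 fold change of the tested members of each gene list (left, deposited scaling filled, relative log expression scaling open) and the share of members called and at least 2-fold higher or lower (right), with the number tested in brackets and the shares over all tested genes, 10.3% and 3.54%, as dashed lines. Interferon effectors (45 of 45) and kallikreins (3 of 3 tested, of 15 listed) reach 100% higher. Some members of both lists, IFI27, KLK8 and KLK11 among them, passed the filter only through the chemoresistant group, which set their direction. The HSP70 and HSP40, HSP90, cytosolic chaperonin, mitosis and replication lists lie near the foot with 2-fold members only on the lower side. The endoplasmic reticulum chaperones lie among them with 13.6% on the higher side.

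Most genes of mitosis and DNA replication were lower. In bulk RNA, fewer cells in a phase and less RNA per cell cannot be told apart. Of 35 mitosis genes 31 were lower and 2 higher (9 and 0 at 2-fold, median -0.63, or -0.81 after relative log expression scaling). MKI67, the proliferation antigen, was at 18.03 to 25.96 FPKM (median 22.2) in chemoresistant and 45.2 to 66.1 FPKM (median 61.2) in parental libraries, PLK1, a mitotic kinase, at 27.1 to 32.3 FPKM (median 29.6) against 63.1 to 70.9 FPKM (median 69.2) and the kinesin KIF20A at 19.9 to 21.4 FPKM (median 20.3) against 47.3 to 51.3 FPKM (median 50.5). CCNB1 and CDK1, the cyclin and kinase of mitotic entry, had log2 fold changes of -0.79 and -0.79. Of 37 replication and nucleotide supply genes 33 were lower and 3 higher (10 and 0 at 2-fold, median -0.58). PCNA, the replication clamp, was at 101 to 122 FPKM (median 112) against 224 to 265 FPKM (median 245), RRM2, which makes deoxynucleotides, at 6.89 to 7.18 FPKM (median 6.99) against 17.2 to 19.7 FPKM (median 18.7) and UHRF1, which maintains DNA methylation, at 10.9 to 14.5 FPKM (median 12.6) against 34.9 to 42.9 FPKM (median 40.9). Cyclin D1, CCND1, was at 21.5 to 23.96 FPKM (median 22.97) against 49.3 to 58.3 FPKM (median 54.3), whereas cyclin D2, CCND2, was at 7.11 to 9.07 FPKM (median 8.42) against 1.45 to 2.08 FPKM (median 2.00) and the inhibitor CDKN1A (p21) at 4.02 to 5.70 FPKM (median 4.74) against 0.821 to 1.36 FPKM (median 1.27).

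Few DNA repair genes reached 2-fold. Of 38 nucleotide excision and crosslink repair genes 23 were lower and 9 higher, with 1 at least 2-fold higher and 0 lower (median -0.23). That gene was DDB2, which recognises damaged DNA, at 21.2 to 23.3 FPKM (median 22.7) in chemoresistant and 8.91 to 9.43 FPKM (median 9.27) in parental libraries. ERCC1, the nuclease subunit studied in platinum resistance, overlapped at 6.53 to 7.47 FPKM (median 7.08) against 6.21 to 7.69 FPKM (median 7.26) (log2 fold change -0.00, adjusted p = 0.959), and passed as lower after relative log expression scaling (-0.16, adjusted p = 0.0324), after upper-quartile scaling (-0.36, adjusted p = 0.000674) and with voom (-0.18, adjusted p = 0.0299). SESN2, a stress sensor that ATF4 also induces, was at 30.6 to 33.3 FPKM (median 32.97) against 3.38 to 3.86 FPKM (median 3.67). Of 29 apoptosis regulators 19 were higher and 8 lower, 4 (13.8%) and 1 (3.45%) at 2-fold. Over all tested genes 10.3% and 3.54% were at 2-fold, so the list lay near the background. Single members moved both ways. The death-promoting BBC3 (PUMA), PMAIP1 (NOXA) and BIK were higher (1.72, 1.72 and 1.76), as was the survival factor MCL1 (0.68), and the survival factor BCL2L1 was lower (-0.40).

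Respiratory chain genes encoded in the nucleus had 0 of 38 at 2-fold (median 0.32, 0.19 after relative log expression scaling), proteasome subunits 1 of 30 lower at 2-fold (median -0.17) and cytosolic ribosomal proteins 1 of 45 higher (median 0.25, 0.07 and -0.16 after the other scalings). GAPDH overlapped at 3296 to 4453 FPKM (median 3658) against 2878 to 3708 FPKM (median 3400) (log2 fold change 0.16, and -0.25 after upper-quartile scaling), and LDHA, lactate dehydrogenase, was lower at 168 to 188 FPKM (median 179) against 340 to 373 FPKM (median 351). Of 28 glycolysis and hypoxia genes 5 (17.9%) were at least 2-fold higher and 0 lower. In lipid synthesis 6 of 30 were at least 2-fold higher and 2 (6.67%) lower: the factor SREBF1 was at 57.3 to 70.1 FPKM (median 63.97) against 18.4 to 21.05 FPKM (median 19.5) and the desaturase SCD at 131 to 142 FPKM (median 135) against 41.9 to 50.9 FPKM (median 44.6), while DHCR7, a late enzyme of cholesterol synthesis, was at 12.7 to 14.5 FPKM (median 13.4) against 34.1 to 42.7 FPKM (median 41.4). Mitochondrial transcripts made up 26.21% to 28.80% of all FPKM in chemoresistant and 28.98% to 32.31% in parental libraries. Of 13 mitochondrial mRNAs 3 were higher and 6 lower (median 0.02). The 1 at least 2-fold lower was MT-ND1, at 1940 to 2179 FPKM (median 2103) against 4687 to 5092 FPKM (median 4897). Of 50 homeobox genes 34 passed the filter, 4 (11.8%) at least 2-fold higher and 4 (11.8%) lower. Over all tested genes the shares were 10.3% and 3.54%, so only the lower share lay above that of all genes.

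Some of the differences ran along chromosomes. Tested protein coding genes on chromosomes 1 to 22 and X (10682) were ordered by position, and the median log2 fold change, after relative log expression scaling, was taken over every run of 40 neighbours. Of 9785 such windows, which overlap, the central 95% had medians from -0.51 to 0.37. The windows named are the 4 lowest and the 4 highest among windows that share no gene, taken in order of their medians. Window genes named here were chosen after their values were seen, except those already described. The lowest window lay on chromosome 11 from ZW10 to RNF26 (GRCh38, 113733187 to 119337313), with a median of -1.18 and 34 of 40 genes below 0. Of its 40 genes 22 were called and at least 2-fold lower, among them the coat protein ARCN1, the ribosomal protein RPS25 (log2 fold changes -1.68 and -1.38) and HYOU1, described above. Histone H2AX, also among them, was at 34.8 to 42.6 FPKM (median 36.6) in chemoresistant and 189 to 219 FPKM (median 205) in parental libraries. The next separate window ran from IGHMBP2 to NEU3 (chromosome 11, 68903842 to 75018893, median -0.91) and holds CCND1, the chloride channel ANO1 (-2.21), CTTN, an actin regulator (-1.18), and DHCR7. A window from TASP1 to TPX2 on chromosome 20 (13389392 to 31801805) had a median of -0.83, with GINS1 of the replication list and the transcription factor FOXA2 (-2.24) in it. FOSL1 lay in a window from KAT5 to KDM2A (chromosome 11, 65711996 to 67258087, median -0.75).

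The highest separate windows were the S100 and SPRR cluster from TUFT1 to RAB13 on chromosome 1 (151540305 to 153986358, median 0.88) and a run from DROSHA to PAIP1 on chromosome 5 (31400497 to 43557758, median 0.87). On chromosome 5, 38 of 40 genes were called higher, 21 at least 2-fold, and 0 lower. The run holds OSMR and LIFR (log2 fold changes 2.28 and 2.15), receptor chains for cytokines of the interleukin-6 family, RICTOR, a subunit of the kinase complex mTORC2 (1.73), and RPL37, the gene behind the single 2-fold call among ribosomal proteins. RPL37 was at 514 to 592 FPKM (median 535) in chemoresistant and 198 to 232 FPKM (median 206) in parental libraries. The other separate windows, on chromosome 6 from TDP2 to H2BC17 (24649977 to 27893843, median 0.70), with histone and BTN3A genes, and on chromosome 12 from TPI1 to APOLD1 (6867119 to 12829975, median 0.64), with the complement proteases C1S (3.73) and C1R (3.60), completed the 4. DNA copy number was not measured.

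**Figure D3:**
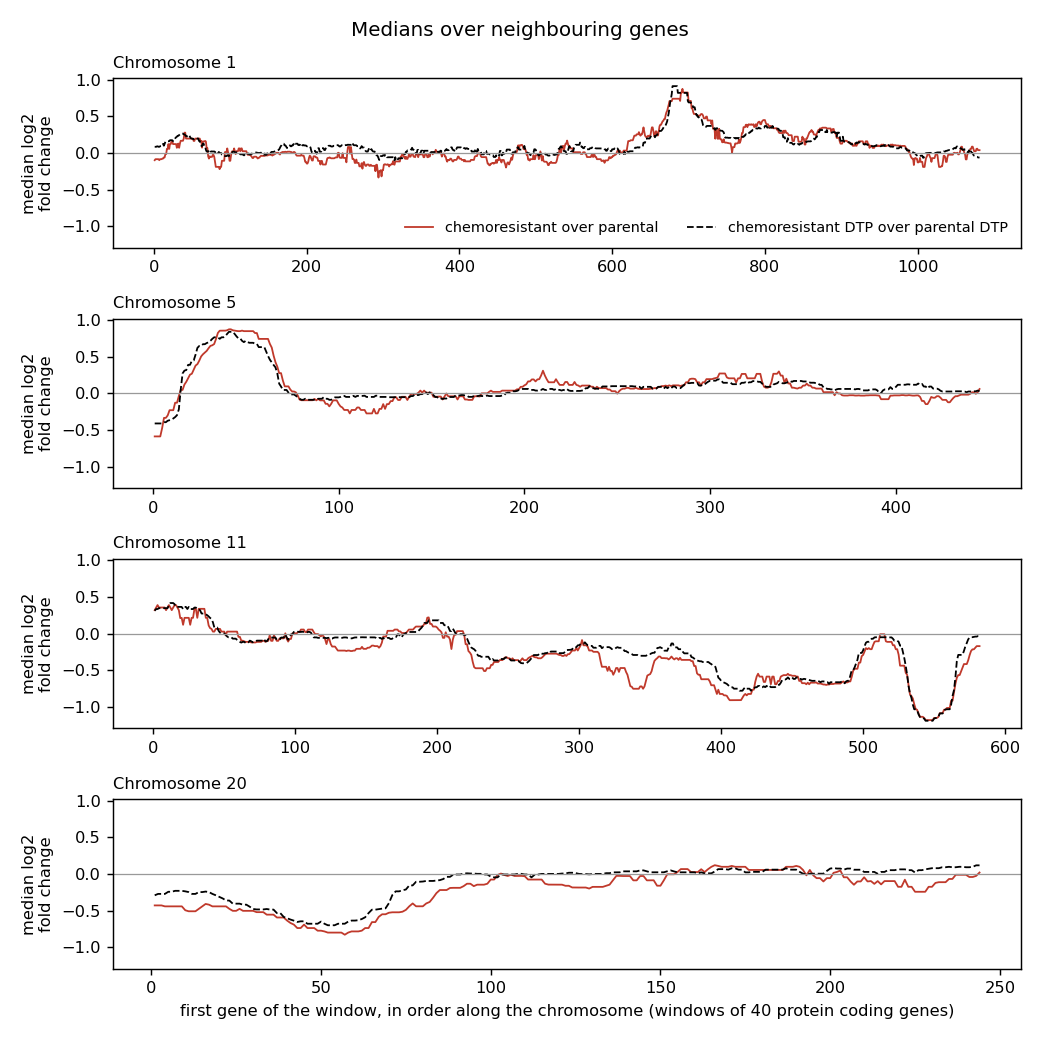
Median log2 fold change over windows of 40 neighbouring protein coding genes on chromosomes 1, 5, 11 and 20, in gene order, for the chemoresistant over parental difference (solid, relative log expression scaling) and the chemoresistant DTP over parental DTP difference (dashed). The run on chromosome 5 and the troughs on chromosomes 11 and 20 appear in both curves, at 0.87 and 0.84, -1.18 and -1.19, and -0.83 and -0.68. The windows named on chromosomes 6 and 12, which are not drawn, had 0.70 and 0.64 against 0.29 and 0.13 between the persister states, and KAT5 to KDM2A on chromosome 11 had -0.75 against -0.29.

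The same line difference was measured in the persister state by 12 other libraries, chemoresistant DTP against parental DTP, with no library shared. Across the 13225 genes the log2 fold changes had a Pearson r of 0.63 and a Spearman rho of 0.49, as a description (genes are not independent replicates), and across overlapping window medians r was 0.83. In that comparison 399 genes (3.02%) were called and at least 2-fold higher and 287 (2.17%) lower. Of the 1362 genes at least 2-fold higher outside the persister state, 318 (23.3%) were also so within it, and of the 468 lower ones 128 (27.4%). Conversely, 79.7% of the 399 and 44.6% of the 287 were shared. Genes entered the persister comparison by their levels outside the persister state. Genes expressed only in persister cells could thus not enter the 399 or the 287, and these 2 shares depend on that filter. The log2 fold changes of AKR1C3, S100A9 and FKBP10 were 6.48, 6.79 and -4.12 between the persister states. Interferon effectors had a median of 0.71 there and ISG15 a log2 fold change of 2.25. For heat shock genes the persister states gave 0.69 for HSPA8 and 1.01 for HSPA1A, against -3.00 and -2.60 outside it. Median values of the HSP90, mitosis and stress response lists were -0.02, -0.01 and 0.34. These differences between the states were not tested. Parental DTP libraries 5 and 6 held 7.56 and 6.07 FPKM of AKR1C3, against 0.641 to 0.763 in the other 4. Without them r was 0.64, the shares of the 1362 and the 468 were 24.3% and 30.8%, and the values for AKR1C3, HSPA8 and HSPA1A were 7.21, 0.65 and 0.85.

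**Figure D4:**
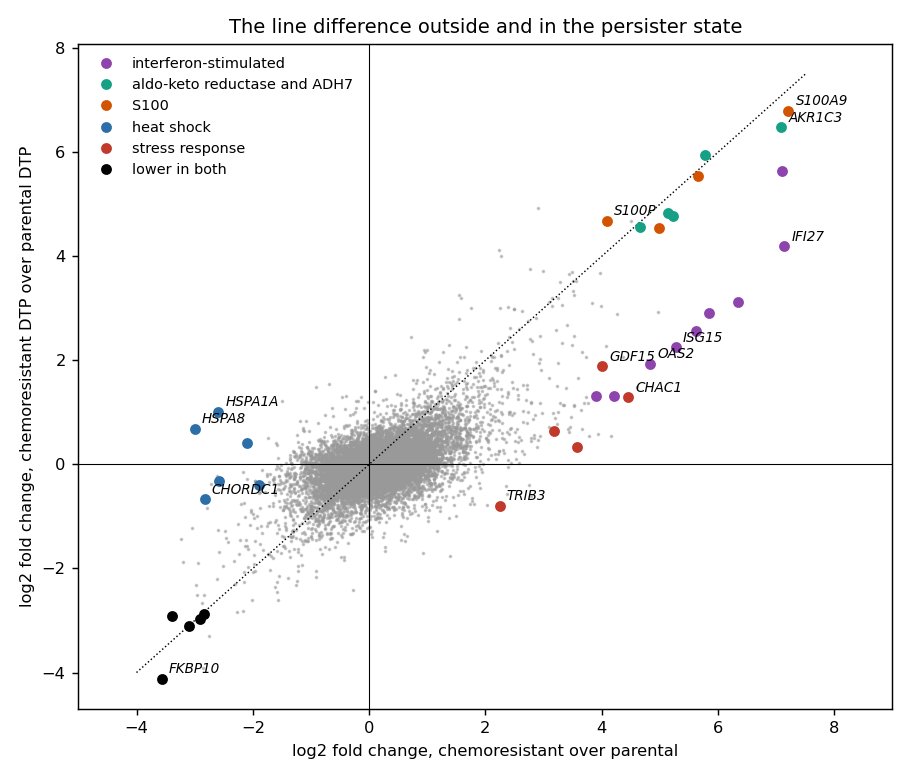
Log2 fold change of each tested gene between the lines outside the persister state (horizontal) and in it (vertical), with selected genes coloured and equality dotted. The coloured S100A7, S100A8, S100A9, S100P, AKR1C1, AKR1C2, AKR1C3 and AKR1B10 lie near equality, whereas the whole S100 list had medians of 1.09 outside the persister state and 1.71 in it, and interferon-stimulated genes lie well below equality, and HSPA8 and HSPA1A in the upper left with opposite signs.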

How the data were processed

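The deposited table gives FPKM per gene and library, made by the authors against GRCh38 per the submitters' processing notes and the file headers. Aligner, counter, annotation release and strand setting: not given in the sources used here. Hence reads of a gene and of its antisense or overlapping partner cannot be told apart. Of 61274 lines, 23 held no values. All 41101 genes above 0 gave whole reads (within 0.02 reads or a relative 5e-08), which supplied library totals. Gene types and positions came from GENCODE 29 (GRCh38), which matched 58337 genes (95.24%), and promoter sequences from RefSeq (GRCh38.p14).

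Genes whose mean reached 1 FPKM in either group were tested on log2(FPKM + 1) with limma 3.58.1 (trend, R 4.3.3) over the 12 libraries, unpaired, with Benjamini-Hochberg adjustment over 13225 genes and a threshold of 0.05. In reads simulated for 12425 genes, the test recovered 196 of 196 changed genes with 11 false calls. Those reads had a fixed spread and no library differences linked to GC content, so they cannot give the error rate of these data. A fold change on this scale understates that of low genes. Gene lists, markers and members were chosen with earlier results of these data known. Genes were named as the 15 largest rises and 15 largest falls (protein coding, at least 5 FPKM in the higher group, no overlap), up to 4 members per list, and fixed anchors. Genes outside this rule are said to be named after their values were seen. Alternatives covered the pseudocount, filters, scalings, libraries in the fit, and voom on recovered reads. A few genes are not reported here.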

Additional observations from a re-analysis of the deposited data

Results flagged for a closer look

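A single library stood apart from the other 5 of its group in 9 of 347 gene and group pairs checked with Dixon's test, where chance gives about 1 in 20. In chemoresistant library 3, ADH7 was at 48.3 FPKM against 44.0 to 44.7 in the others, HSPA5 at 110 against 114 to 117 and XBP1 at 43.1 against 48.9 to 51.7. In chemoresistant library 2, H2AX was at 42.6 FPKM against 34.8 to 37.3. Among parental libraries, CCND2 was at 1.45 FPKM in library 2 against 1.96 to 2.08, CHAC1 at 1.46 in library 2 against 0.837 to 1.05, HSPB1 at 803 in library 4 against 679 to 705, MVP at 2.72 in library 4 against 2.06 to 2.27 and TAP1 at 5.73 in library 5 against 6.08 to 6.26.

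For 12 named genes the line difference pointed one way between the persister states and the other way outside them, with no overlap between the lines in either; the difference between the states was not tested. Higher in chemoresistant DTP than in parental DTP cells, and lower outside the persister state, were HSPA1B (log2 fold changes 1.21 and -1.49), HSPA1A (1.01 and -2.60), DNAJB1 (0.76 and -0.41), HSPA8 (0.69 and -3.00), ACTB (0.43 and -1.22), BAG3 (0.43 and -0.27) and DNAJA1 (0.41 and -2.10). Lower in chemoresistant DTP cells, and higher outside, were TRIB3 (-0.80 and 2.25), SOX2 (-0.78 and 0.77), TP63 (-0.72 and 0.55), CIITA (-0.57 and 0.41) and PTGS2 (-0.45 and 1.91).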

How the results depend on the processing

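A pseudocount of 0.1 gave 2487 genes at least 2-fold higher and 755 lower, no filter on low values 11897 higher at any size, and a minimum of 5 FPKM 3137 higher, 750 of them at 2-fold. Scaling moved the balance: relative log expression gave 713 at least 2-fold lower, and upper quartile 4067 higher and 6817 lower, 789 and 1226 at 2-fold. Voom on recovered reads gave 2116 and 1196 at 2-fold. The causes were not tested. Leaving out a library gave 6423 to 6710 higher and 3960 to 4105 lower, 1344 to 1378 and 460 to 481 at 2-fold. With the replicate number as a block there were 6613 higher and 4093 lower, 1362 and 468 at 2-fold; the numbers did not pair the libraries (correlations from -0.32 to 0.31, and 2 of the 6 closest to their own number). The planned count models were not run, since the values are FPKM. Of 4661 gene and setting pairs 4602 kept direction and side of the threshold. Direction changed for 7 genes: GAPDH (-0.02 after relative log expression scaling and with voom, -0.25 after upper quartile), HSF1 (-0.00, -0.00 with voom and -0.22), and, after upper quartile, GCLM (-0.19), GSTP1 (-0.22) and HSPB1 (-0.18). ERCC1 had 0.00 and 0.09 in the libraries above and below 0 on the second principal component and 0.01 with chemoresistant libraries 1 to 3 only, and -0.04 to 0.02 with a library left out, and passed as lower after relative log expression (-0.16), upper quartile (-0.36) and with voom (-0.18). FN1 had 0.58 with chemoresistant libraries 4 to 6 only, and -0.37 to 0.11 with a library left out. Of 52 lists, 7 changed the sign of their median under another scaling.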
